A study of Mus musculus with 19 samples.

Results

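The prolactin receptor, its kinase JAK2, the transcription factors STAT5A and STAT5B and the feedback inhibitors CISH, SOCS1 and SOCS2 form the route by which prolactin reaches the genes of the mammary epithelium. The mRNAs of these 7 genes (Prlr, Jak2, Stat5a, Stat5b, Cish, Socs1 and Socs2) were followed in total RNA-seq of mouse mammary gland, out of 24421 genes with counts, and all 7 had enough reads to be tested. They were chosen by name and by their place in the pathway, though with earlier results of these data known.

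Prolactin binds a receptor of the class I cytokine family that has no kinase activity of its own. JAK2, held on the inner part of the receptor, phosphorylates STAT5A and STAT5B, which pair, enter the nucleus and bind GAS motifs in their target genes, among them the casein genes, Wap and Cish. CISH and the SOCS proteins are induced by the same signal and restrain it, CISH and SOCS2 mainly at the receptor and SOCS1 by direct inhibition of JAK kinases. In the mammary gland STAT5A is the STAT5 protein on which alveolar development mostly depends. STAT5 activity is set by phosphorylation, which mRNA levels do not measure.

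Wild-type (WT) tissue gave 3 libraries at day 6 of pregnancy (p6) and 3 at day 18 (p18), and tissue from mice that the labels call Enhancer-delS1-4, a deletion of the super-enhancer in the casein locus (ΔSE), gave 4 at p6 and 4 at p18. Another 2 libraries, labelled p18, came from a deletion of the proximal enhancer of Csn3 (ΔCsn3PE) and 3 from a deletion of a Csn1s2b enhancer (ΔCsn1s2bE). All mice were of the C57BL/6 background, the labels name no treatment, and the mutants were described as homozygous germline deletions made with CRISPR/Cas9, present in every cell of the animal. The casein locus lies on chromosome 5, which holds none of the 7 genes. The last 5 libraries form their own set of labels without WT libraries, and their extraction notes name WT tissue in lactation, so that their stage is uncertain and line and library set cannot be told apart. Levels are given as normalized CPM (read counts scaled to a common library size, by TMM), and groups were compared with edgeR's quasi-likelihood test at an adjusted p of 0.05. Whether libraries of a group came from separate animals is not given for each library in the labels, so that p-values measure the spread between these libraries.

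Reads in genes came to 12335272 to 20525175 per library in WT and ΔSE tissue and to 26848053 to 30329601 in the single-enhancer lines, of which 21.7 to 42.9% in the former and 0.0765 to 0.924% in the latter fell on Rn45s, the precursor of ribosomal RNA. Csn3, which lies in the deleted locus, stood at 46.4 to 423 normalized CPM in WT tissue at p6 and at 0 to 5.84 in ΔSE tissue. Luminal epithelium markers were detected in every group, none of the 8 at 0. WT replicate 2 at p6 stood apart, with Csn2, the beta-casein gene, at 30.8 normalized CPM against 1297 and 1045 in the other WT libraries at p6, and values without it are given where leaving it out changes a call or moves a called value by over 1.5 times. Skeletal muscle markers summed to 907 to 2151 normalized CPM in WT and to 40.0 to 3372 in ΔSE tissue at p6, to 2.96 to 1347 in WT and to 5.16 to 10.3 in ΔSE tissue at p18. In such bulk tissue, fewer cells of a type and less RNA per cell cannot be told apart.

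Cish and Prlr are shown with the motif letters in their RefSeq promoter windows (GRCm38.p6, from 250 bases before to 50 bases after a start), because Cish is the member called between genotypes at p6 and is itself a known STAT5 target, and Prlr is the other member with a match. The letters searched were TTCNNNGAA, which reads the same on both strands, and matches are in capitals.
Cish: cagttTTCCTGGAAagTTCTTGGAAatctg
Prlr: gcaaaatgagTTCTAGGAAtaagggatatc
The Cish stretch lies at chr9:107296654-107296683 on the + strand. Its 2 matches cover bases 1 to 9 and 12 to 20 counted from the RefSeq start of this window, and 5 starts are annotated for this gene. The Prlr stretch lies at chr15:10223786-10223815 on the + strand, and its match runs from 110 to 102 bases before the start in 1 of the windows of this gene. Windows were found for 6 of the 7 genes, all but Socs2. Among their 10 windows, 2 held the motif, against 8.30% of all 32851 windows in the table, so that a match is common and is a description of the letters only.

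Per kilobase of exons, Prlr, Jak2, Stat5a and Stat5b lay above the inhibitors Cish, Socs2 and Socs1 within each group of libraries. Across groups they met, with Prlr down to 5.42 normalized CPM per kb in ΔSE replicate 3 at p18 and Cish up to 5.44 in ΔCsn1s2bE replicate 1. The divisor was the union of all annotated exons, 6.419 kb for Cish, 9.531 kb for Socs2 and 15.339 kb for Prlr. Levels between genes, their order and their overlap depend on that length. Without division by length, the means in WT tissue at p18 were 122 normalized CPM for Prlr, 56.3 for Jak2 and 33.1 for Cish. In WT tissue at p6 the order was Prlr at 16.2 ± 6.44 (SD, n = 3) normalized CPM per kb, Stat5b at 14.3 ± 1.65, Jak2 at 13.8 ± 2.76 and Stat5a at 13.1 ± 3.53, and each of these overlapped the next. Cish at 3.60 ± 1.80 and Socs2 at 3.05 ± 0.268 overlapped each other below them, and Socs1 was last at 0.0956 ± 0.0883. In WT tissue at p18 Stat5a led with 21.9 ± 3.61 and overlapped Stat5b at 18.8 ± 2.59, and Jak2 at 11.2 ± 0.175, Prlr at 7.95 ± 0.979, Cish at 5.16 ± 0.172, Socs2 at 2.09 ± 0.248 and Socs1 at 0.126 ± 0.0318 followed without overlap. Prlr had the highest mean per kilobase at p6, an order that the overlap leaves unresolved. At p18 it lay below both STAT5 genes and Jak2 per kilobase in every WT library. In ΔSE tissue at p18 the order was the same and no neighbours overlapped, with Stat5a at 20.7 ± 3.05, Stat5b at 16.7 ± 0.509, Jak2 at 14.4 ± 1.14 and Prlr at 6.32 ± 0.925. In ΔSE tissue at p6 Jak2 at 12.7 ± 0.440, Stat5b at 12.1 ± 0.203, Prlr at 11.2 ± 3.88 and Stat5a at 8.65 ± 1.43 overlapped in turn, and Cish at 1.48 ± 0.202 stood below Socs2 at 2.89 ± 0.606.

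**Figure D1:**
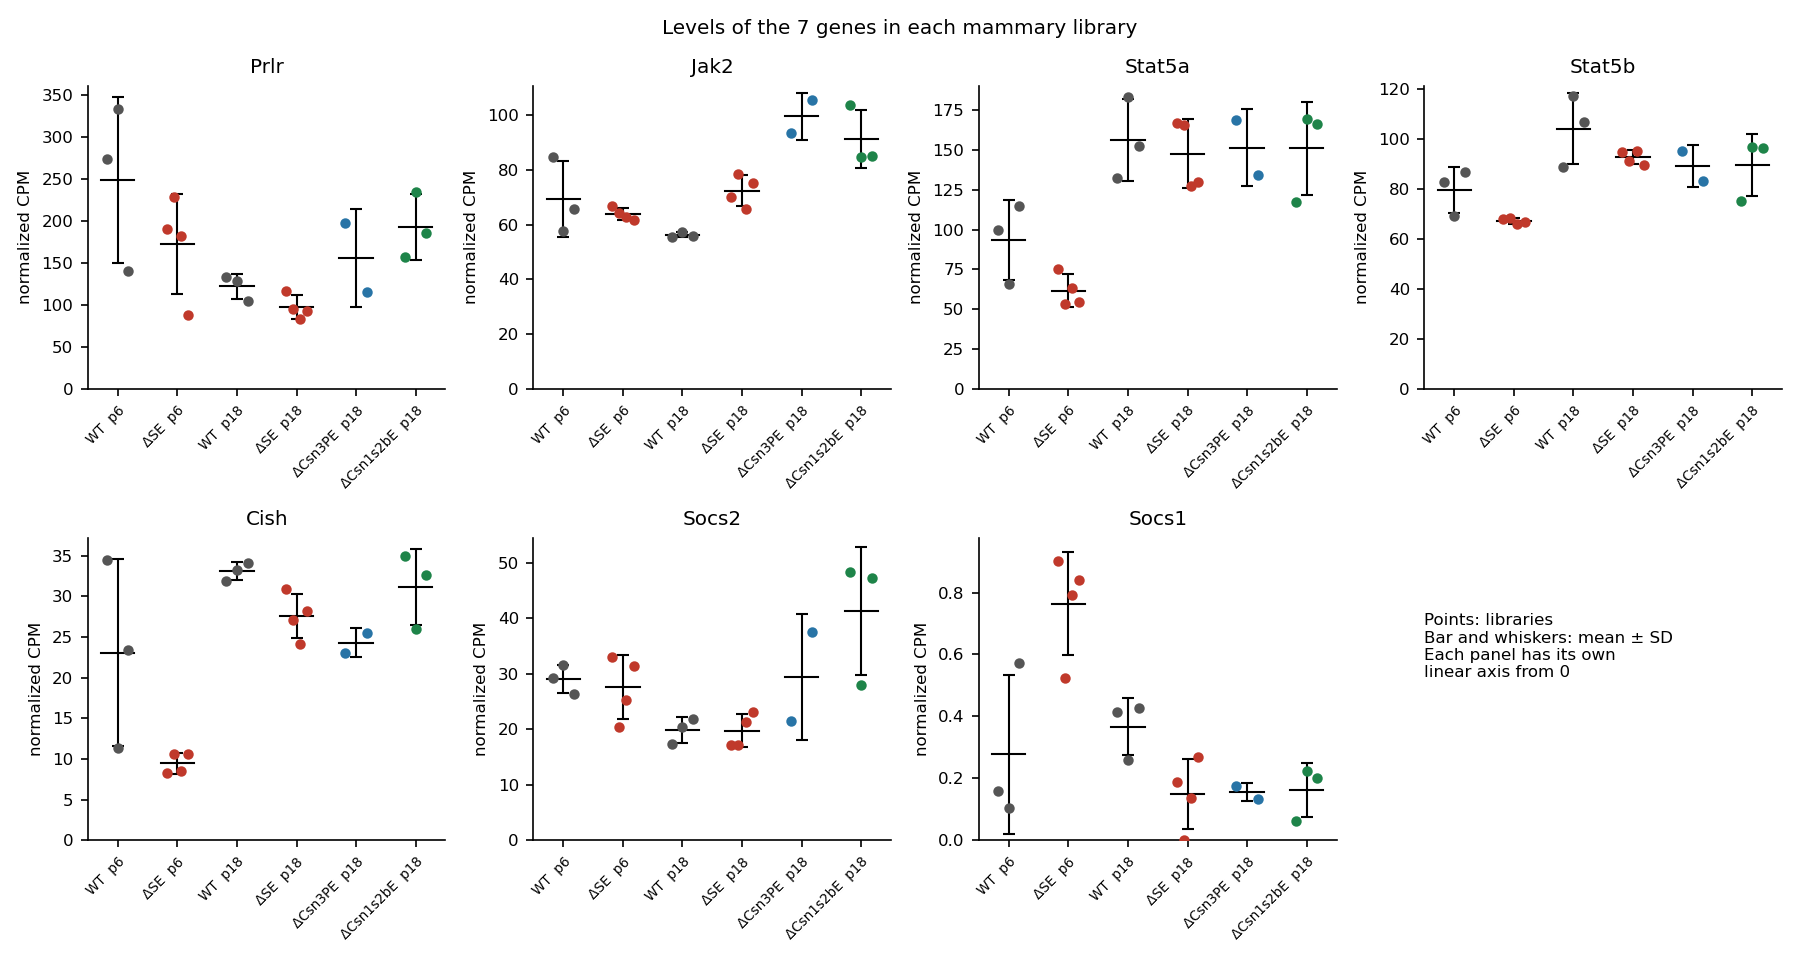
Normalized CPM of each of the 7 genes on its own linear axis from 0, with 1 point per library, a bar at the mean and whiskers of 1 SD, for the 6 groups. Stat5a stands between 53.3 and 115 in the libraries of p6 and between 118 and 184 in those of p18, and Cish lies between 8.28 and 10.6 in the 4 ΔSE libraries at p6.

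The first comparison asks how the pathway changes over pregnancy in WT tissue. In it 2 of the 7 genes rose and 2 fell, 4 calls in all, where 29.6% of all 17844 genes tested were called. The count was 2 without WT replicate 2 at p6 and 1 without WT replicate 2 at p18. Over all genes tested, the libraries of the 2 stages did not overlap for 39.9% in WT and 38.1% in ΔSE tissue. The STAT5 genes rose while the receptor and Socs2 fell. The median log2 fold change of the 7 was 0.36, against -0.05 over all genes. That middle value is the one of Socs1, a gene with few reads (SE 0.71), so that it shows no shift of the 7 as a set. Markers of other cell types moved beside them in WT tissue, where 5 of 5 nerve and Schwann markers fell (median -1.38), 2 of 8 adipocyte markers fell (median -0.69) and 2 of 8 luminal markers rose (median 0.58). The nerve and Schwann markers summed to 72.6 to 94.0 normalized CPM at p6 and to 35.3 to 48.4 at p18. Myoepithelial markers summed to 525 to 1065 at p6 and to 1443 to 1698 at p18. The part of any of these markers in the changes of the 7 genes was not tested.

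Prlr, the receptor itself (chr15:10177238-10349180, + strand, GRCm38/mm10, as for the genes that follow), stood at 273, 333 and 140 normalized CPM in the 3 WT libraries at p6 and at 133, 128 and 105 at p18. Every WT library at p18 was below every one at p6, with 1 of the p6 libraries close to the p18 range. The level at p18 was 49.1% of that at p6, a log2 fold change of -1.002 (SE 0.30, adjusted p = 0.0190). In ΔSE tissue Prlr stood at 190, 228, 182 and 88.3 at p6 and at 117, 95.4, 83.2 and 92.7 at p18. There 1 ΔSE library at p6 lay inside the p18 range, and the log2 fold change was -0.81 (SE 0.26, adjusted p = 0.0232). The fall in WT tissue was not called without WT replicate 2 at p6 (-0.75, adjusted p = 0.0756), WT replicate 2 at p18 (-1.03, adjusted p = 0.0539) or WT replicate 3 at p18 (-0.91, adjusted p = 0.0756). Among 8 fits that left out 1 library, the fall in ΔSE tissue was called only without ΔSE replicate 4 at p6 or replicate 1 at p18. The values in these fits ran from -0.999 to -0.62. Beside it, all 7 markers of hormone-sensing luminal cells, a class of cells known to carry the prolactin receptor, fell in both genotypes (median log2 fold changes -3.34 in WT and -2.56 in ΔSE tissue). Their part in the level of Prlr was not tested.

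Jak2, the kinase of the receptor (chr19:29251828-29313080, + strand), was called in neither genotype. In WT tissue it stood at 84.6, 57.6 and 65.6 normalized CPM at p6 and at 55.6, 57.3 and 55.9 at p18, a log2 fold change of -0.27 (SE 0.13, adjusted p = 0.124), which passed without WT replicate 2 at p6 (-0.41, adjusted p = 0.0253). In ΔSE tissue it stood at 66.7, 64.2, 62.7 and 61.5 at p6 and at 70.2, 78.6, 65.5 and 75.2 at p18, a log2 fold change of 0.20 (SE 0.11, adjusted p = 0.183). The WT libraries at p18 lay below all WT libraries at p6, whereas the ΔSE groups overlapped.

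Stat5a (chr11:100859351-100885169, + strand) had the larger fold change of the STAT5 pair. In WT tissue it stood at 99.97, 65.6 and 115 normalized CPM at p6 and at 133, 184 and 152 at p18, so that the groups did not overlap. The log2 fold change was 0.76 (SE 0.20, adjusted p = 0.00800), a 1.70-fold rise, and it was 0.54 (adjusted p = 0.0372) without WT replicate 2 at p6. In ΔSE tissue Stat5a stood at 75.6, 53.3, 63.2 and 54.8 at p6 and at 167, 166, 128 and 130 at p18, again without overlap. Its log2 fold change there was 1.28 (SE 0.17, adjusted p = 4.36e-05), a 2.42-fold rise that was called in all 8 fits without 1 library.

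Stat5b, the close paralog that lies beside Stat5a (chr11:100780731-100850724, − strand), had the smaller fold change. In WT tissue it stood at 82.6, 69.1 and 86.5 normalized CPM at p6 and at 88.6, 117 and 106 at p18. The groups did not overlap, and the log2 fold change was 0.41 (SE 0.12, adjusted p = 0.0149). In ΔSE tissue its 4 libraries at p6 were within 65.7 to 68.1 and those at p18 within 89.4 to 95.2, a log2 fold change of 0.48 (SE 0.10, adjusted p = 0.00176). The WT call was lost without WT replicate 2 at p6 (0.30, adjusted p = 0.0771), without WT replicate 2 at p18 (0.33, adjusted p = 0.0797) and in a fit of the WT groups alone (adjusted p = 0.121). Reads that fit both genes equally well could not be told apart in the counts, so that each value is uncertain to that extent.

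The direction of Stat5b and Jak2 depended on scaling in ΔSE tissue. Scaled by library totals alone, the median of all genes moved from -0.05 to -0.42 in WT and from -0.07 to -0.65 in ΔSE tissue, where Stat5b was at 0.04 (adjusted p = 0.912) and -0.11 (adjusted p = 0.634). Stat5a then stood at 0.39 (adjusted p = 0.226) in WT and 0.67 (adjusted p = 0.00957) in ΔSE tissue, and Jak2 at -0.62 (adjusted p = 0.0222) in WT and -0.40 (adjusted p = 0.0491) in ΔSE tissue. Relative to that median, Stat5a, Stat5b and, in ΔSE tissue, Jak2 were higher at p18 under that scaling too.

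Cish, which encodes an SH2 protein induced by STAT5 (chr9:107296026-107302784, + strand), differed between WT libraries at p6. They stood at 34.5, 11.4 and 23.4 normalized CPM, and those at p18 at 32.0, 33.3 and 34.1. The WT groups overlapped, and the log2 fold change of 0.55 (SE 0.26) did not pass the threshold (adjusted p = 0.118). The value was 0.21 (adjusted p = 0.392) without WT replicate 2 at p6 and 0.95 (adjusted p = 0.00594) without WT replicate 1 at p6. In ΔSE tissue Cish stood at 8.28, 10.6, 8.46 and 10.6 at p6 and at 30.9, 27.1, 24.2 and 28.2 at p18. All ΔSE libraries at p18 were above all at p6, a 2.93-fold rise with a log2 fold change of 1.55 (SE 0.23, adjusted p = 0.000114).

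Socs2, an inhibitor known from growth hormone signalling (chr10:95385362-95417180, − strand), fell with stage. In WT tissue it stood at 29.2, 31.5 and 26.4 normalized CPM at p6 and at 17.3, 20.5 and 21.9 at p18, without overlap, a log2 fold change of -0.52 (SE 0.18, adjusted p = 0.0337). In ΔSE tissue it stood at 33.1, 20.5, 25.3 and 31.3 at p6 and at 17.2, 17.3, 21.3 and 23.2 at p18, with overlap, a log2 fold change of -0.46 (SE 0.15, adjusted p = 0.0266). With the summed level of skeletal muscle markers as a covariate the fold changes were close to these, at -0.49 in WT (adjusted p = 0.0720) and -0.41 in ΔSE tissue (adjusted p = 0.178), but neither passed. Calls were also lost without any 1 of replicates 1 and 2 at either stage in WT tissue, and without replicates 1 or 4 at p6 or 1 or 2 at p18 in ΔSE tissue. Over these fits WT values ran from -0.60 to -0.44 and ΔSE values from -0.57 to -0.34.

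Socs1, the JAK inhibitor (chr16:10782240-10785536, − strand), was near the limit of detection, with 0 to 17 reads per library. In WT tissue it stood at 0.158, 0.103 and 0.573 normalized CPM at p6 and at 0.413, 0.260 and 0.426 at p18, a log2 fold change of 0.36 (SE 0.71, adjusted p = 0.747). In ΔSE tissue it stood at 0.902, 0.524, 0.791 and 0.842 at p6 and at 0.188, 0, 0.136 and 0.268 at p18, a fitted log2 fold change of -2.24 (SE 0.66, adjusted p = 0.0145). The ΔSE libraries at p18 were below those at p6, and 3 reads, the limit that a count of 0 allows, come to 0.201 to 0.281 normalized CPM in them, so that the size of this fall cannot be read. With muscle markers as a covariate it was -2.38 (adjusted p = 0.0613).

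In ΔSE tissue the stage comparison thus held 3 members that rose and 3 that fell, 6 calls, where 35.6% of all genes were called. Fibroblast markers differed between the ΔSE stages as well, summing to 9978 to 12918 normalized CPM at p6 and to 3369 to 6262 at p18, and 5 of 6 were lower at p18 by the test. In that comparison 7 of 8 luminal markers rose and 6 of 6 skeletal muscle markers fell (median log2 fold change -7.83), as did 5 of 8 adipocyte and 4 of 5 nerve and Schwann markers (medians -1.13 and -1.13). With muscle as a covariate Cish was at 1.65, Stat5a at 1.22 and Stat5b at 0.61, all called. With 1 factor of unwanted variation estimated from most genes, 0 members were called in either stage comparison, where 0.398% of all genes were called in WT and 0% in ΔSE tissue. Myoepithelial markers summed to 735 to 1093 normalized CPM in ΔSE tissue at p6 and to 1469 to 1579 at p18. The part of the other markers in these changes was not tested.

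**Figure D2:**
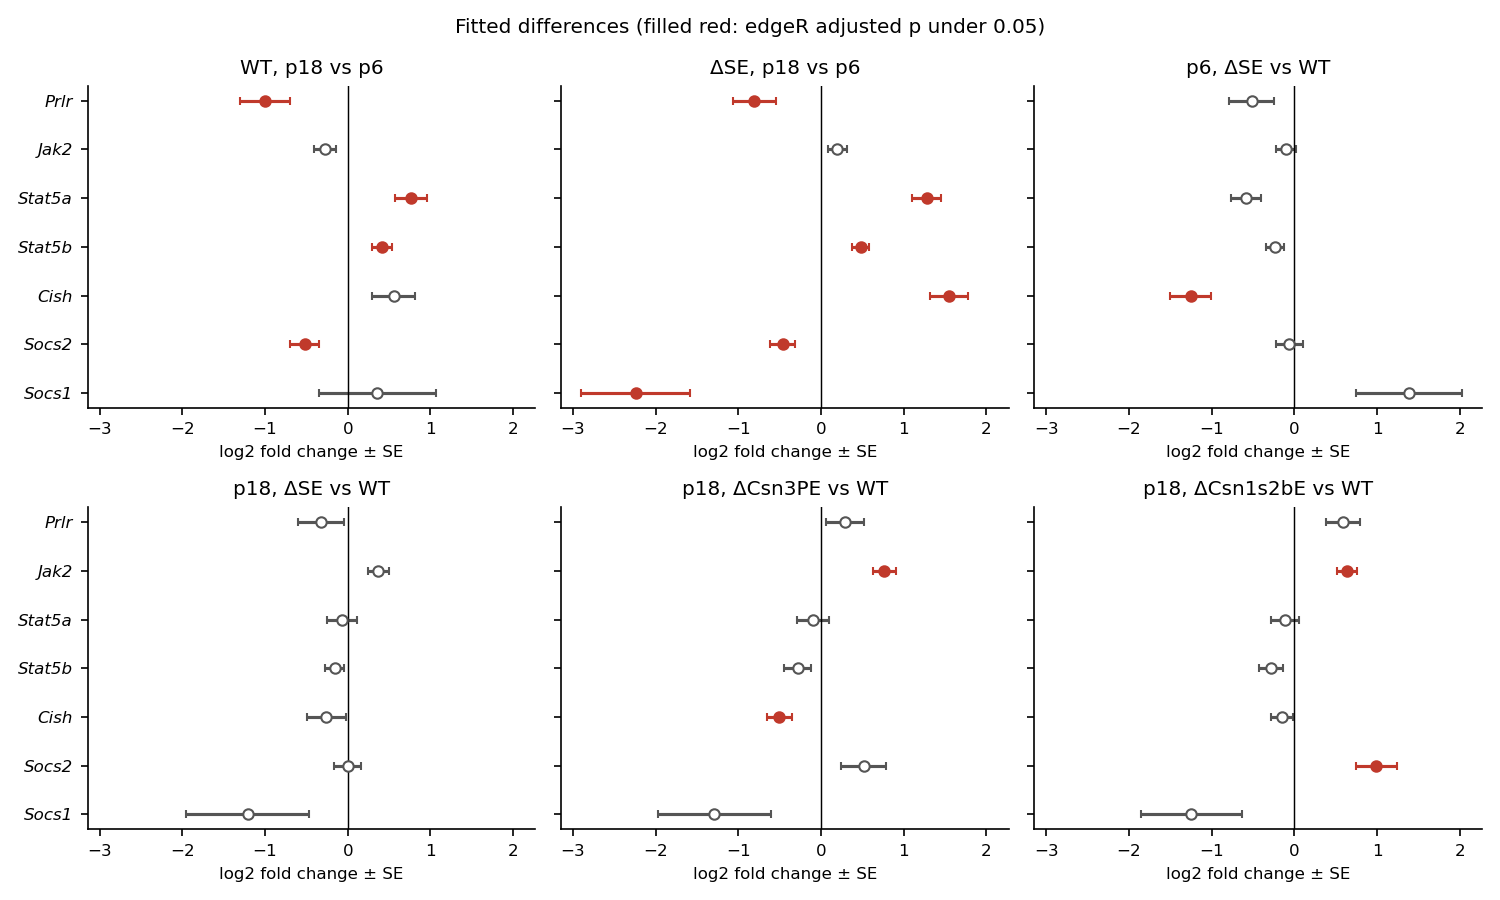
Fitted log2 fold change with whiskers of 1 SE for the 7 genes in 6 comparisons, filled in red where edgeR's adjusted p was under 0.05. Stat5a and Stat5b lie to the right of 0 and Prlr and Socs2 to the left in both stage panels, Cish is the only filled point between ΔSE and WT tissue, and Jak2 is filled in both single-enhancer panels.

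The next question was whether the pathway differed between ΔSE and WT tissue. At p6, 1 of the 7 genes was called, where 1.03% of all genes were. The ΔSE and WT libraries at p6 did not overlap for 11.4% of all genes. Cish fell, with a mean of 9.49 ± 1.30 (SD, n = 4) normalized CPM in ΔSE against 23.1 ± 11.5 (n = 3) in WT tissue, and the highest ΔSE library, at 10.6, was just below the lowest WT library, at 11.4. The ΔSE mean was 41.1% of the WT mean, a log2 fold change of -1.25 (SE 0.25, adjusted p = 0.0328). The WT libraries spread widely, and the call was lost in several fits. Without WT replicate 2 at p6 the difference was -1.59 (adjusted p = 3.5e-05). Without WT replicate 1 at p6 it was -0.86 (adjusted p = 0.163), without WT replicate 3 at p6 it was -1.24 (adjusted p = 0.0873), and without any 1 of the ΔSE libraries at p6 it lay between -1.33 and -1.21 (adjusted p = 0.0521 to 0.0899). The fold change stayed near its size but did not pass in a fit of the 2 groups alone (-1.28, adjusted p = 0.267) or with a replicate block (-1.24, adjusted p = 0.0787). Nor did it pass scaled by library totals alone (-1.04, adjusted p = 0.106) or with 1 factor of unwanted variation (-1.18, adjusted p = 0.136). It passed in DESeq2 (-1.28, adjusted p = 0.000242), with muscle markers as a covariate (-1.23, adjusted p = 0.0298) and under the other scalings and filters.

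Of the other members at p6, Stat5a was at -0.58 (SE 0.18, adjusted p = 0.117) and passed in DESeq2 (adjusted p = 0.0376) and without WT replicate 2 at p6 (-0.80, adjusted p = 0.00712). Stat5b, at -0.23 (adjusted p = 0.303), was lower in all 4 ΔSE libraries than in any WT library. Prlr was at -0.52 (adjusted p = 0.361) and at -0.26 without WT replicate 2, Jak2 at -0.10 (adjusted p = 0.731) and at -0.23 without it, Socs2 at -0.06 (adjusted p = 0.904) and Socs1 at 1.39 (adjusted p = 0.280). For Jak2 and Socs2 the 95% intervals of the difference ran from -0.36 to 0.15 and from -0.40 to 0.28.

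Of 17 other known STAT5 targets, 5 fell in ΔSE tissue at p6, 12 were not called and 0 rose, where 1.03% of all genes were called. The median log2 fold change of the 17 was -0.65, against 0.01 over all genes. Of these 5, the casein genes Csn3 at -7.13, Csn1s2a at -4.85, Csn2 at -4.85 and Csn1s1 at -4.72 lie in the locus from which the super-enhancer was deleted. The remaining one, Elf5, an epithelial transcription factor encoded elsewhere in the genome, was at -1.55 (adjusted p = 0.0458). Its levels were 125, 38.9 and 166 normalized CPM in WT and 53.4, 30.2, 30.1 and 35.4 in ΔSE tissue at p6, so that WT replicate 2 lay inside the ΔSE range. Without that library Elf5 was at -1.96 (adjusted p = 0.000162), and 8 targets fell and 2 rose, where 9.97% of all genes were called. The same library had the lowest level of Cish among WT libraries.

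Marker levels differed beside Cish at p6. The 8 luminal markers summed to 783 to 1097 normalized CPM in WT and to 479 to 942 in ΔSE tissue, with a median log2 fold change of -0.35 and 0 called by edgeR, of which 2 had an unadjusted p under 0.05. The 6 fibroblast markers summed to 1068 to 9516 in WT and to 9978 to 12918 in ΔSE tissue, with a median of 1.13 and 0 called, and all 6 had an unadjusted p under 0.05. Without WT replicate 2 that median was 1.74, and 5 rose. Adipocyte markers summed to 1918 to 2905 in WT and to 2582 to 4939 in ΔSE tissue. Macrophage markers summed to 109 to 295 in WT and to 270 to 362 in ΔSE tissue. Without WT replicate 2, 4 of 8 adipocyte and 1 of 5 macrophage markers rose. Relative to the geometric mean of the luminal keratins Krt8 and Krt18 in the same library, Cish was lower in ΔSE tissue by a log2 difference of -0.90 (exact two-sided permutation test, p = 0.229; the smallest p that 3 against 4 libraries allow is 0.0571), and by -1.53 without WT replicate 2. The part of these cell types in the difference was not tested further.

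**Figure D3:**
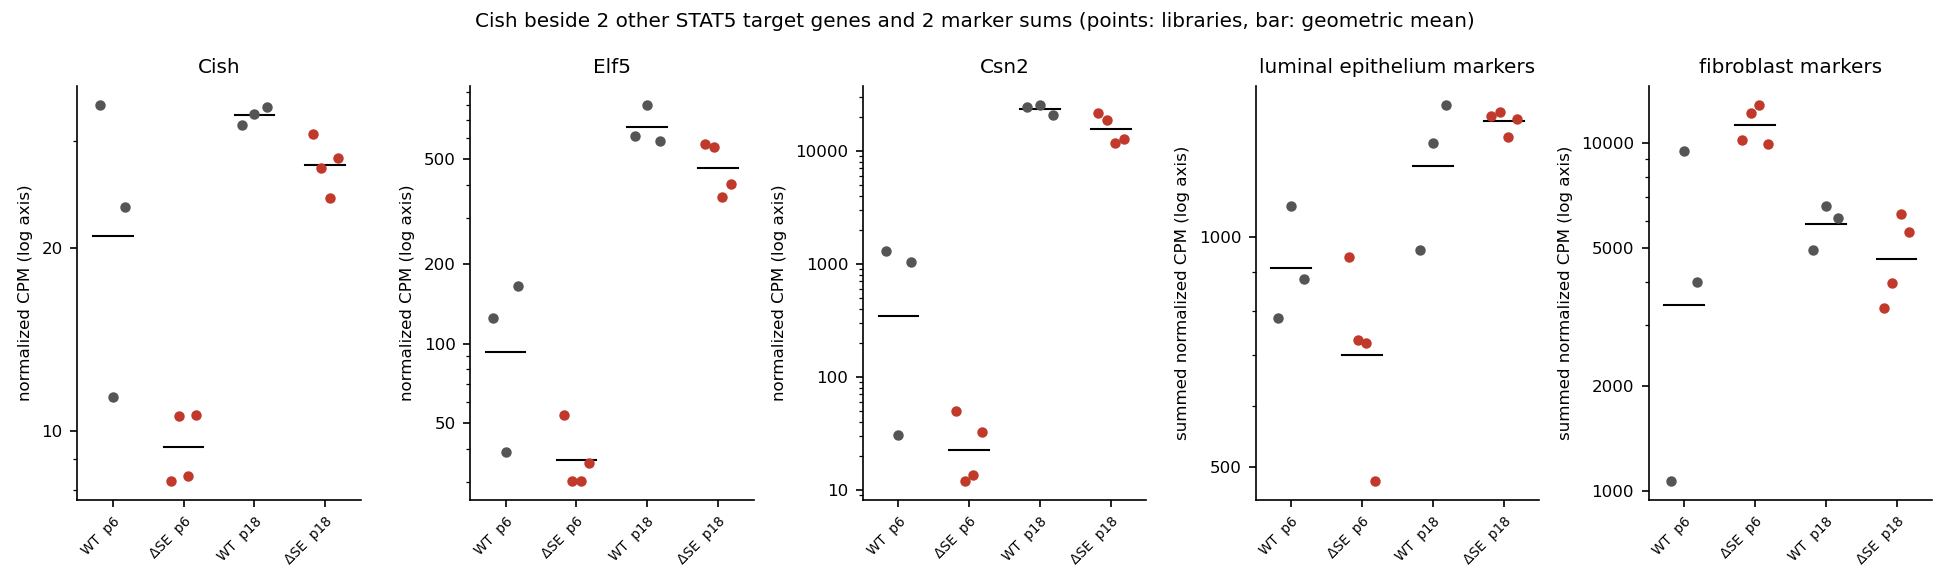
Normalized CPM on log axes for Cish, Elf5 and Csn2 and for the summed luminal and fibroblast markers, with 1 point per library of WT and ΔSE tissue and a bar at the geometric mean. At p6 the ΔSE libraries lie low for the 3 genes and high for the fibroblast sum, and 1 WT library at 11.4 for Cish, 38.9 for Elf5 and 30.8 for Csn2 lies close to them.

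At p18, 0 of the 7 genes differed between ΔSE and WT tissue by edgeR or by DESeq2, where 0.314% of all genes were called, and 1 had an unadjusted p under 0.05, as did 12.3% of all genes. That gene was Jak2, at 70.2, 78.6, 65.5 and 75.2 in ΔSE against 55.6, 57.3 and 55.9 normalized CPM in WT tissue. Its ΔSE libraries were all above the WT libraries, with a log2 fold change of 0.37 (SE 0.12, unadjusted p = 0.00781, adjusted p = 0.194), and it passed in a fit of these 2 groups alone (0.41, adjusted p = 0.0240). These 2 groups did not overlap for 15.1% of all genes. Cish was at 27.6 ± 2.76 (n = 4) against 33.1 ± 1.11 (n = 3), lower in every ΔSE library, with a log2 fold change of -0.26 (adjusted p = 0.721) and a 95% interval from -0.77 to 0.25. Stat5a was at -0.07 (interval -0.46 to 0.31), Stat5b at -0.16 (interval -0.39 to 0.07) and Socs2 at -0.00 (interval -0.35 to 0.35). Prlr was at -0.32 (interval -0.91 to 0.27), and Socs1, at 0 to 4 reads in these ΔSE libraries, at -1.21 (interval -2.78 to 0.36).

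Whether the change over pregnancy differed between the genotypes was tested as an interaction. It was called for 0 of the 7 genes by edgeR and by DESeq2, where 0.151% of all genes were called, and 3 had an unadjusted p under 0.05, as did 16.6% of all genes. The log2 fold change over pregnancy in ΔSE tissue minus that in WT tissue was 0.99 for Cish (SE 0.35, unadjusted p = 0.0108, adjusted p = 0.177), 0.47 for Jak2 (SE 0.17, adjusted p = 0.191) and -2.60 for Socs1 (adjusted p = 0.205). The rise of Cish in ΔSE and its uncalled difference in WT tissue are therefore not shown to differ. Without WT replicate 2 at p6, Cish at 1.36 (adjusted p = 0.00255) and Jak2 at 0.63 (adjusted p = 0.0324) passed, and without WT replicate 1 at p6 Cish was at 0.60 (adjusted p = 0.407). For Prlr the interaction was 0.19 (-0.036 without WT replicate 2 at p6), for Stat5b 0.07 and for Socs2 0.06, with intervals that span 0.

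In the single-enhancer lines at p18, Jak2 was the member called in both. It stood at 93.6 and 106 normalized CPM in ΔCsn3PE and at 104, 84.9 and 85.3 in ΔCsn1s2bE tissue, against 55.6 to 57.3 in WT tissue at p18, so that no library of either line reached down to a WT library. The log2 fold changes were 0.77 (SE 0.14, adjusted p = 0.00441) and 0.64 (SE 0.12, adjusted p = 0.00376), and both passed in every alternative fit, with values from 0.65 to 1.20 and from 0.52 to 1.05. In ΔCsn3PE tissue 2 of the 7 genes were called, where 25.2% of all genes were, and in ΔCsn1s2bE tissue 2, where 32.3% of all genes were. Libraries of the line and of WT tissue did not overlap for 52.2% of all genes in ΔCsn3PE and 46.9% in ΔCsn1s2bE tissue. Both comparisons use the same WT libraries. They also differ in the share of Rn45s and in entries that name no gene (23.5 to 30.6% of the reads in the single-enhancer files and 0% in the others), so that none of these differences can be assigned to a deletion.

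The other call in ΔCsn3PE tissue was Cish, at 23.1 and 25.6 against 32.0 to 34.1 normalized CPM in WT tissue at p18. It fell to 73.4% of the WT mean, with a log2 fold change of -0.50 (SE 0.16, adjusted p = 0.0378). The call was lost in each of 5 fits that left out 1 library (adjusted p = 0.0592 to 0.211), and the value was -0.07 (adjusted p = 0.849) under scaling by library totals. In ΔCsn1s2bE tissue Cish stood at 34.9, 25.9 and 32.7, overlapping WT tissue, at -0.15 (adjusted p = 0.442).

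The other call in ΔCsn1s2bE tissue was Socs2, at 48.4, 27.9 and 47.3 against 17.3 to 21.9 normalized CPM in WT tissue at p18. All 3 libraries were above WT tissue, with a log2 fold change of 0.99 (SE 0.25, adjusted p = 0.0126), which was 0.89 (adjusted p = 0.0620) without WT replicate 1 at p18. In ΔCsn3PE tissue Socs2 stood at 21.5 and 37.5, at 0.51 (adjusted p = 0.193). Prlr stood at 157, 235 and 186 in ΔCsn1s2bE tissue, above all WT libraries at p18, and its log2 fold change of 0.59 (SE 0.21) missed the threshold at an adjusted p of 0.0504. It passed in DESeq2 (adjusted p = 0.0358). Stat5a and Stat5b were at -0.11 and -0.28 in ΔCsn1s2bE and at -0.10 and -0.28 in ΔCsn3PE tissue, none called. Scaled by library totals alone, where the median of all genes moved to 0.40 and 0.42, these values turned to 0.28 and 0.11 and to 0.30 and 0.13, none called, and with upper-quartile factors Stat5b was at -0.39 in ΔCsn1s2bE tissue (adjusted p = 0.0413).

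Between the 2 single-enhancer lines, which share a library set, 0 of the 7 genes differed by edgeR or by DESeq2, where 0.181% of all genes were called. Cish alone had an unadjusted p under 0.05, at a log2 difference of 0.35 higher in ΔCsn1s2bE tissue (adjusted p = 0.968). For Jak2 the difference was -0.13, with a 95% interval from -0.43 to 0.17. With 2 and 3 libraries these intervals are wide, and a p that misses the threshold does not show that the lines were alike.

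Ratios within a library do not depend on its scaling. Per kilobase, Stat5a to Stat5b stood at 0.940, 0.737 and 1.03 in WT tissue at p6 and at 1.16, 1.22 and 1.11 at p18. It stood at 0.866, 0.607, 0.748 and 0.640 in ΔSE tissue at p6 and at 1.37, 1.42, 1.04 and 1.13 at p18. All p18 libraries were thus above all p6 libraries in each genotype, and per kilobase Stat5a went from the lower to the higher of the pair in ΔSE tissue. In reads without division by length, ΔSE replicate 1 at p6 already stood at 1.11, so which gene is higher depends on that length. The log2 differences were 0.38 in WT tissue (exact permutation test, p = 0.1, the smallest that 3 against 3 libraries allow, and 0.24 without WT replicate 2 at p6) and 0.79 in ΔSE tissue (exact permutation test, p = 0.0286, the smallest that 4 against 4 allow, and 0.143 after adjustment over 15 ratio tests). Between ΔSE and WT tissue the ratio differed by -0.33 at p6 (exact permutation test, p = 0.171) and by 0.08 at p18 (exact permutation test, p = 0.514). In the single-enhancer lines it stood between 1.21 and 1.38.

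Cish relative to the sum of Stat5a and Stat5b gives the feedback mRNA per STAT5 mRNA. The ratio per kilobase stood at 0.186, 0.0817 and 0.115 in WT tissue at p6 and at 0.144, 0.111 and 0.131 at p18, which overlapped, a log2 difference of 0.09 (exact permutation test, p = 0.9) that turned to -0.19 without WT replicate 2 at p6. In ΔSE tissue it stood at 0.0565, 0.0834, 0.0636 and 0.0842 at p6 and at 0.119, 0.106, 0.107 and 0.128 at p18. The ΔSE stages did not overlap, and the log2 difference was 0.69 (exact permutation test, p = 0.0286, adjusted 0.143). At p6 the ratio was lower in ΔSE than in WT tissue by -0.76 on the log2 scale (exact permutation test, p = 0.171), and 1 WT library at 0.0817 lay inside the ΔSE range.

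Socs2 was lower at p18 relative to STAT5, in a ratio that draws on the same counts as the changes of these genes above. Its ratio to the STAT5 mRNAs stood at 0.0875 to 0.153 in WT tissue at p6 and at 0.0458 to 0.0566 at p18, a log2 difference of -1.13 (exact permutation test, p = 0.1, adjusted 0.25). In ΔSE tissue it stood at 0.109 to 0.167 at p6 and at 0.0445 to 0.0706 at p18, a log2 difference of -1.32 (exact permutation test, p = 0.0286, adjusted 0.143). In ΔCsn1s2bE tissue it stood at 0.169, 0.0710 and 0.122, above WT tissue at p18 by 1.14 on the log2 scale (exact permutation test, p = 0.1, adjusted 0.25).

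**Figure D4:**
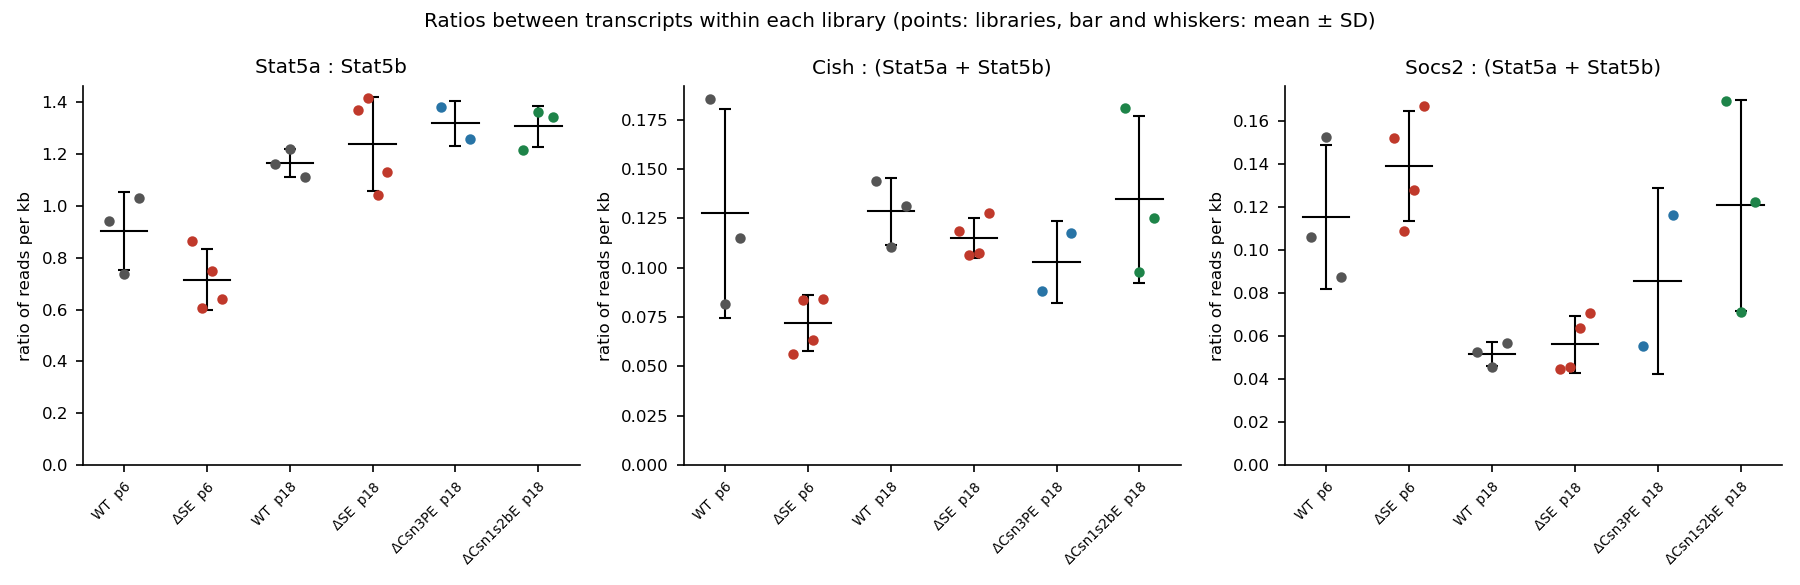
Ratios of reads per kb between transcripts on linear axes from 0, with 1 point per library, a bar at the mean and whiskers of 1 SD. Stat5a to Stat5b is higher at p18 than at p6 in both genotypes, Cish to STAT5 is lowest in ΔSE tissue at p6, and Socs2 to STAT5 lies at or under 0.0706 in WT and ΔSE tissue at p18.

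The share of luminal cells is known to grow over pregnancy, and the stage changes were also read per luminal keratin. In ΔSE tissue, Prlr per keratin fell by 1.82 on the log2 scale, Socs2 fell by 1.54, Jak2 fell by 0.89 and Stat5b fell by 0.60, each with all p18 libraries below the p6 libraries (exact permutation test, p = 0.0286 for each, the smallest possible, and 0.04 after adjustment over the 7 genes). Stat5b, which was higher at p18 in normalized CPM, was thus lower per keratin. These tests share the keratin denominator, which moves every gene of a library by the same amount on the log2 scale. No value over all genes is given on this scale, so that these falls are not set apart from those of other genes. Socs1, near the limit of detection, was at -3.41 with the same p in this test. Stat5a at 0.19 (exact permutation test, p = 0.257) and Cish at 0.47 (exact permutation test, p = 0.2) overlapped between stages on this scale. In WT tissue Prlr was at -1.58 and Socs2 at -1.19 per keratin (exact permutation test, p = 0.1 for each, the smallest possible), and Cish at 0.02 (exact permutation test, p = 1), which turned to -0.61 without WT replicate 2 at p6.

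The rest of the pathway gives the setting of the 7 genes. The ligand genes Prl and Gh, which encode prolactin and growth hormone and are known from the pituitary, had 0 reads in all 19 libraries. Of 17 other class I cytokine receptors, 1 rose and 4 fell in WT tissue between p6 and p18, and 1 rose and 6 fell in ΔSE tissue, with medians of -0.32 and -0.42. These are shares close to those of all genes called, 29.6% and 35.6%, and they say nothing particular of the receptors. Il4ra, a subunit of the interleukin-4 receptor, rose in WT tissue by 1.23 on the log2 scale, while Osmr, the oncostatin M receptor, was at -1.01 and Csf2rb, the beta chain shared by receptors for GM-CSF and related cytokines, at -0.86.

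Of 8 other JAK kinases and STATs, 0 were called by edgeR in WT tissue and 1 had an unadjusted p under 0.05. In ΔSE tissue Stat3, which acts in involution of the gland, rose by 0.78 and Stat6, which acts downstream of interleukin-4, by 0.36, and Stat2, of the interferon pathway, was at -0.45. Of 5 other SOCS genes, Socs5 at -1.02 and Socs3 at -0.94 fell in WT tissue, and Socs5 at -0.997 in ΔSE tissue. Among 15 phosphatases, PIAS proteins and adaptors, 2 fell in WT tissue and 4 in ΔSE tissue, and 0 rose in either. With so few members these counts are not set apart from the 29.6% and 35.6% of all genes called. Those included Cbl, a ubiquitin ligase, at -0.32 and -0.35 and Ptpn11, which encodes the phosphatase SHP2, at -0.27 in ΔSE tissue.

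Of 17 known STAT5 targets, 10 rose and 5 fell in WT tissue with a median of 1.34, and 9 rose and 4 fell in ΔSE tissue with a median of 1.37, against -0.05 and -0.07 over all genes. Of all genes tested, 17.2% rose and 12.4% fell in WT tissue, and 17.3% rose and 18.3% fell in ΔSE tissue. Wap, a whey protein gene, was at 10.07 and 9.29 and Glycam1, a milk mucin gene, at 9.42 and 9.93, both called in each genotype. Tnfsf11, which encodes RANKL and is made by hormone-sensing cells, was at -4.75 and -2.56.

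Between ΔSE and WT tissue, 0 genes were called by edgeR among the other receptors, JAKs and STATs, SOCS genes and phosphatases at either stage. At p6 the number with an unadjusted p under 0.05 was 5 of 17 receptors, 1 of 8 JAKs and STATs, 0 of 5 SOCS genes and 2 of 15 phosphatases and adaptors, against 17.0% of all genes. At p18 it was 2, 2, 1 and 0, against 12.3% of all genes. Without WT replicate 2 at p6, 3 receptors rose and 2 fell and 1 phosphatase or adaptor rose at p6. Among the STAT5 targets at p18, Csn3 fell at -6.00 and Tnfsf11 rose by 2.46.

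In ΔCsn1s2bE tissue 3 of 5 other SOCS genes rose against WT tissue, Socs6 by 0.62, Socs5 by 0.51 and Socs7 by 0.41, and in ΔCsn3PE tissue Socs6 by 0.63. Ghr, the growth hormone receptor and a close relative of Prlr, rose by 1.06 and 0.87. Tyk2 and Jak3, further kinases of the JAK family, fell in both lines, by 0.77 and 1.25 in ΔCsn1s2bE tissue, where Jak2 rose. Beside these stands the background of 32.3% and 25.2% of all genes called between the library sets.

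Genes whose pattern over the 14 WT and ΔSE libraries was most like that of each member were found by the root mean square difference of log2 levels, each centred on its mean, among 8430 genes whose mean reached 10 normalized CPM. For Cish these were Scly (0.20), Syne4 (0.26) and Chka (0.29), where Cish itself varied by 0.78 around its mean. For Stat5a they were Mfsd6 (0.11), Gne (0.14) and Ly6e (0.14), with an own spread of 0.61. For Stat5b they were Ascc1 (0.07), Med17 (0.07) and Rmnd5b (0.09), with an own spread of 0.26. For Prlr they were Tmem56 (0.24), D8Ertd82e (0.24) and Lama5 (0.29), with an own spread of 0.60. For Jak2 they were Ilkap (0.09), Hnrnpa2b1 (0.10) and Slk (0.11), for Socs2 Ptprg (0.16), Smo (0.17) and Rcan3 (0.19), and for Socs1, with few reads, P3h3 (0.50), Crip1 (0.54) and Lsp1 (0.54). These libraries share their stage and genotype groups.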

How the data were processed

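Per the labels, total RNA of mouse mammary gland was depleted of ribosomal RNA and made into stranded paired-end libraries. The authors trimmed reads with Trimmomatic, aligned them to mm10 with STAR and deposited HTSeq counts per gene, not normalized. Their annotation and strand setting are not given in the sources used here, so that reads shared by Prlr and Gm21973, Stat5a and Stat3, or Cish and its antisense neighbours Gm17040 and Gm17041 may not be told apart. Labels name the RNeasy Plus kit for RNA.

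Entries that name no gene (23.5 to 30.6% of reads in single-enhancer files) were left out. Depth ran from 12335272 to 30329601 reads in genes, and 3 reads equal 0.0805 to 0.281 normalized CPM. This covers counting error only. Counts were tested with edgeR (version 4.0.16, R 4.3.3; glmQLFit, TMM, at least 10 reads in total, Benjamini-Hochberg over all genes tested), in 1 model of 14 WT and ΔSE libraries and 1 of 8 libraries at p18 (17125 genes). Standard errors came from the F statistic. Ratios and keratin-scaled levels used exact two-sided permutation tests of log2 values with the one-sided p doubled. Alternatives included DESeq2 (version 1.42.0), other scalings and filters, 1 factor of unwanted variation, muscle markers as a covariate, a replicate block and fits that left out 1 library each. Scripts were tested on simulated counts. Genes named were the 7 members, up to 4 called genes of each list with the smallest p, and the 3 nearest patterns. Elf5 at p6, Prl, Gh and the casein levels were named after their values were seen. The members and lists were chosen with earlier results of these data known.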

Additional observations from a re-analysis of the deposited data

How the results depend on the processing

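The number of members called in WT tissue between stages was 4, 0 with 1 factor of unwanted variation and 1 to 4 without 1 library; in ΔSE tissue it was 6, 0 with that factor, 4 with the muscle covariate and 4 to 5 without 1 library (4 without ΔSE replicate 1 at p6 or replicate 2 at p18). That factor, estimated from most genes, also turned Stat5a to -0.26 in WT and -0.24 in ΔSE tissue, and scaling by library totals alone turned Jak2 to -0.40 and Stat5b to -0.11 in ΔSE tissue, where the cause was not tested. Between ΔSE and WT tissue at p6 it was 1, 2 in DESeq2, 0 by library totals alone, with the factor, with the replicate block and in the 2 groups alone, and 0 to 2 without 1 library; at p18 it was 0, and 1 in the 2 groups alone. For the interaction it was 0 to 2 without 1 library. For ΔCsn1s2bE it was 2, and 1 to 3 without 1 library; for ΔCsn3PE it was 2, and 1 with the factor, the muscle covariate, the replicate block or any library left out, where a lone library was assumed to vary like the other groups. Replicate numbers were not shown to pair samples (correlations of 0.06 to 0.20 in WT and -0.16 to 0.30 in ΔSE tissue between stages), and the block changed no other count of members. Without 1 library the log2 difference of Stat5a to Stat5b in ΔSE tissue was 0.72 to 0.89, that of Cish to STAT5 -0.19 to 0.40 in WT, 0.59 to 0.78 in ΔSE and -0.21 to 0.24 for ΔCsn1s2bE, and that of Socs2 to STAT5 -1.44 to -1.22 between ΔSE stages and -0.024 to 0.20 between ΔSE and WT tissue at p18. Over all genes, DESeq2 called 486 higher and 430 lower against 183 in all by edgeR at p6, 135 and 361 against 56 at p18 and 285 and 312 against 27 for the interaction, and the unwanted factor left 51 and 20 calls of 5279 in WT and 0 of 6348 in ΔSE tissue between stages; by library totals 763 were higher and 3663 lower in WT (3068 and 2211 by TMM) and 628 and 7969 in ΔSE tissue (3083 and 3265).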
